A study of Homo sapiens with 2 samples.

Results

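LINC genes are long noncoding RNA genes that lie between annotated protein-coding genes and carry a running number in place of a descriptive name. In the deposited expression table, 859 symbols have this form, and 110 of them reached 0.5 FPKM (fragments scaled to transcript length in kilobases and to the mapped total) in at least 1 of the 2 libraries. These 110 are described here. They were chosen by their FPKM in these same libraries, so the levels below are a description. The first library came from PLC/PRF/5 cells, an established human hepatocellular carcinoma line, overexpressing NFX1, a zinc-finger transcription factor. The second came from the same line carrying an empty vector (EV), and both cultures were kept under hypoxia. Each group is a single library without replicates, so no test could be made, and a difference below is one between these libraries only. The labels do not say how NFX1 was delivered or whether the cells were 1 clone.

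Long intergenic RNAs are transcribed by RNA polymerase II, and most are capped, spliced and polyadenylated like messenger RNAs. Some act on the gene beside them, some bind proteins or microRNAs in the cytoplasm, and some have later been found to carry a short reading frame that is translated. Many are transcribed in few cell types and at low levels, and several have been studied in liver cancer.

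NFX1 itself had 56.0 FPKM in the NFX1 library and 4.21 FPKM in the vector library, 13.3 times as much. The step between the lowest values of olfactory receptor genes put 29.9 M fragments in the NFX1 library and 26.3 M in the vector library. All 9 hepatocyte markers reached 0.5 FPKM, with SERPINA1 at 6807 and 5935 FPKM in the NFX1 and vector libraries. ALB, which encodes albumin, was low at 1.06 and 0.776 FPKM, as were TTR (1.96 and 1.38 FPKM) and FGB (1.64 and 1.70 FPKM). The summed markers of fibroblasts were 1.04 and 0.917 FPKM and those of endothelial cells 0.0682 and 0.0587 FPKM. The 6 blood markers summed to 48.8 FPKM in the NFX1 library and 49.9 FPKM in the vector library. LYZ alone of them passed 0.5 FPKM and made up most of this, at 47.9 and 49.2 FPKM.

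The label intergenic and noncoding did not hold for all of the 110 genes. RefSeq lists 102 of them as lncRNA and 8 as protein_coding, and 27 have since been given another symbol. By the hg19 loci of the deposited table, 13 overlapped the locus of another named gene with at least 1 FPKM in a library, 25 lay within 5000 bp of one without overlap, and 72 lay farther away. Genes under 1 FPKM and rows with several symbols were left out, so these distances do not show that a gene is intergenic. Whether the reads were counted by strand is not given in the sources used here, so reads of an overlapping gene could enter the values of those 13. The same holds for LINC01270 and LINC01271, which share 1 listed locus. Both stayed under 1 FPKM, so they are counted among the 72. The LINC transcripts were short, with a median length of 1493 bp for the 104 genes matched to GENCODE, against 2654 bp over all genes at the same filter. The median GC content of the LINC transcripts was 50.9%, against 50.2% over all genes.

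Most LINC symbols had no measured expression. Of the 859, 564 (65.7%) were listed at 0 in both libraries and 185 more stayed under 0.5 FPKM. Of the 110, 100 reached 0.5 FPKM in both libraries, 84 reached 1 FPKM in at least 1 library and 14 reached 10 FPKM. The median was 1.89 FPKM in the NFX1 library and 1.90 FPKM in the vector library. Just inside the limit were LINC00514 (0.513 FPKM in the NFX1 library and 0.288 in the vector library), LINC00921 (0.395 and 0.529) and LINC01270 (0.335 and 0.565). Each of them reached the limit in 1 library only, so its direction is not independent of that filter. Just outside were LINC00342 (0.262 and 0.495), LINC00324 (0.480 and 0.270) and LINC01091 (0.412 and 0.474). At this level few fragments stand behind a value: an estimated 34 in the NFX1 library and 17 in the vector library for LINC00514.

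**Figure D1:**
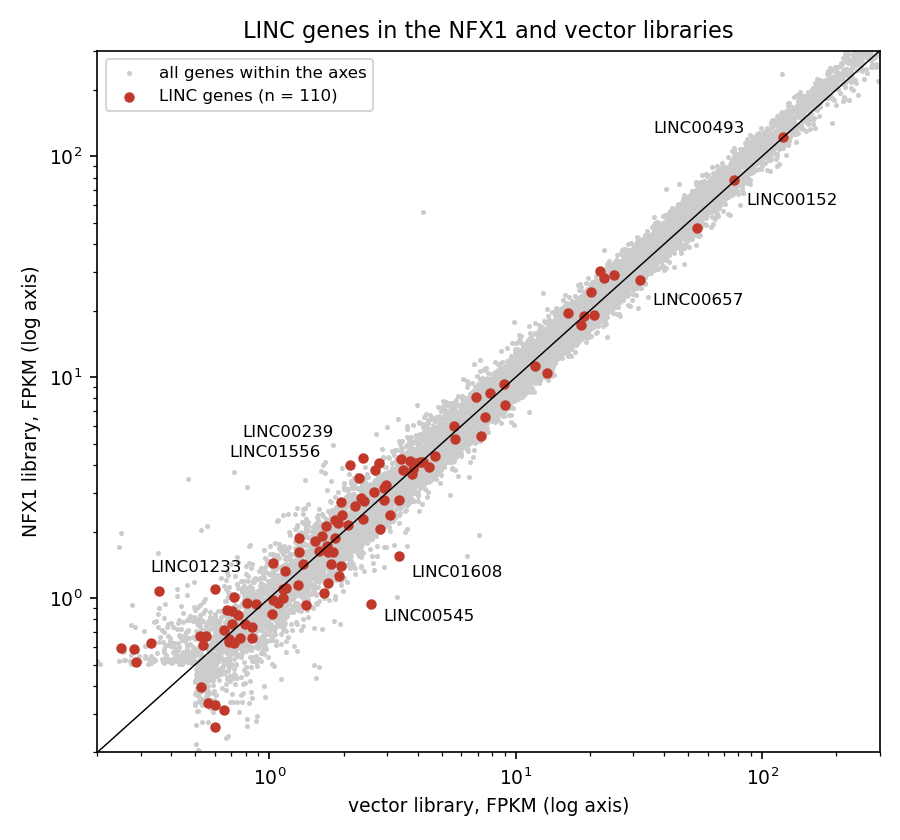
FPKM of each gene in the NFX1 library (vertical, log axis) against the vector library (horizontal, log axis); red points are the 110 LINC genes, grey points all other genes inside the axes, and the line marks equal values. The abundant LINC genes lie near the line, and the 5 beyond 1.5-fold with 1 FPKM added to each value have at most 4.32 FPKM.

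A few genes held most of the signal. The 12 with the highest mean made up 65.9% of the summed FPKM of the 110 in the NFX1 library and 65.4% in the vector library, and the first 3 alone 35.4% and 36.8%. The most abundant was LINC00493 (chromosome 20, 18548073 to 18550203, hg19), with 122 FPKM in the NFX1 library and 121 FPKM in the vector library. It encodes a short membrane protein and is now called SMIM26. FPKM is inflated for transcripts about as short as a sequenced fragment, and the transcript matched to LINC00493 has 505 bp.

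Of the 11 listed LINC symbols that were later renamed for a short protein, 8 were in the table and 4 of them were expressed. The reading frames of these 4 are shown because each is the part of the RNA that is translated. Each is printed 5′ to 3′ from the GENCODE transcript with the start and stop codons in capitals.
LINC00493 (SMIM26): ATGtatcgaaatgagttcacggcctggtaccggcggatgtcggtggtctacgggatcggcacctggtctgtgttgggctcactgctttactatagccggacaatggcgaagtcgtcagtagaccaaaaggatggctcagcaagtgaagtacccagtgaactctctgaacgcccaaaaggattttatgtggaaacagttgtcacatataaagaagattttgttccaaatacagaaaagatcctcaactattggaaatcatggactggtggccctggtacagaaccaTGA
LINC00116 (MTLN): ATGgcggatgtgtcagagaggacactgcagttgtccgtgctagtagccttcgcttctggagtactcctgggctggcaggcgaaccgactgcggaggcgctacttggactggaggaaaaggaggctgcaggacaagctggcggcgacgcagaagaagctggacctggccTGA
LINC00998 (SMIM30): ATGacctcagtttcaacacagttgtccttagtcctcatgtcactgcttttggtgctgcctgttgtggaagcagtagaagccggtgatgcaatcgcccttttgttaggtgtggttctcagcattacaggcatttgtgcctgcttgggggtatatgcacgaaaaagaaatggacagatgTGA
LINC01420 (NBDY): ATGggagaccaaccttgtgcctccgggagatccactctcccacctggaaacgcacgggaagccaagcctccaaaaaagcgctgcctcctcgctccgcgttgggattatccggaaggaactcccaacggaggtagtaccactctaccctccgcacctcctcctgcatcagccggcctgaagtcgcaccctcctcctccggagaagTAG
The frames hold 95 codons before the stop in LINC00493, 56 in LINC00116, 59 in LINC00998 and 68 in LINC01420. For LINC00116 the frame shown is that of 2 GENCODE transcripts; the RefSeq-linked one, of 2051 bp, is annotated with a frame of 138 codons. For LINC00493, 2 other transcripts have frames of 94 and 73 codons.

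The changes of these 4 were small. LINC00116, which encodes the mitochondrial inner-membrane microprotein mitoregulin, had 24.2 FPKM in the NFX1 library and 20.2 FPKM in the vector library. Its FPKM ratio was 1.20, with a 95% exact counting interval of 1.11 to 1.30. The interval covers counting error in these 2 libraries only and rests on a transcript length of 2051 bp; with a shorter transcript it would be wider. LINC00998, whose membrane microprotein SMIM30 has been studied in liver cancer, had 17.2 FPKM in the NFX1 library and 18.4 FPKM in the vector library (ratio 0.937, interval 0.827 to 1.06). LINC01420 encodes NoBody, a component of the messenger RNA decapping machinery, and had 6.56 and 7.48 FPKM in the NFX1 and vector libraries (ratio 0.878, interval 0.747 to 1.04). The intervals of LINC00998 and LINC01420 include 1. Over the 8 genes that RefSeq lists as protein_coding, the median change was 0.14, with 6 higher and 2 lower, against a median of 0.01 for the 102 lncRNA genes. Of the 6 higher, LINC00514 reached the 0.5 FPKM minimum in the NFX1 library alone, so its direction is not independent of that filter. Trend-adjusted, the median of these 8 was 0.06, against 0.01 for the lncRNA genes. Here and below, a change is log2((NFX1 FPKM + 1)/(vector FPKM + 1)), so the differences of weakly expressed genes come out too small. The greatest of the 8 was in LINC00634, now SMIM45, at 1.10 FPKM in the NFX1 library and 0.599 FPKM in the vector library, a change of 0.39, or 0.21 trend-adjusted.

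LINC00152, now CYTOR, was second in level. It has been studied as a growth-promoting RNA in liver and other cancers. It had 77.7 FPKM in the NFX1 library and 76.6 FPKM in the vector library (ratio 1.01, interval 0.933 to 1.10). Its near-identical copy on the same chromosome, MIR4435-2HG, had 69.5 and 61.8 FPKM, so how reads were split between both is uncertain. LINC01419, on chromosome 8, followed with 47.4 FPKM in the NFX1 library and 54.3 FPKM in the vector library (ratio 0.873, interval 0.822 to 0.927).

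LINC00657, now NORAD (chromosome 20, 34633540 to 34638882, hg19), came next by mean. NORAD is a conserved cytoplasmic RNA that binds PUM2, a repressor of messenger RNAs, through many copies of its recognition element, the Pumilio element. It had 27.5 FPKM in the NFX1 library and 31.9 FPKM in the vector library. The ratio was 0.863 with an interval of 0.827 to 0.900, the narrowest among the named genes, from an estimated 4390 and 4475 fragments. Its change was -0.21, and -0.11 once adjusted for the trend with GC content, transcript length and level. PUM2 had 7.29 FPKM in the NFX1 library and 8.35 FPKM in the vector library, a change of -0.17.

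The Pumilio element TGTANATA, searched on the sense strand, stood 15 times in the 5339 bases of NORAD. The first, the middle and the last of them are shown with 10 bases on either side and the element in capitals, because they mark what sets this RNA apart in sequence.
NORAD, from base 761: ggaaggcctgTGTATATAatatgaaaaa
NORAD, from base 2466: aataacacttTGTAAATAgcttttaaaa
NORAD, from base 4599: ttagcctattTGTAAATAcctttgttat
Of the 104 LINC transcripts, 9 held the element at least once and NORAD alone more than once. That is 8.65% of the LINC transcripts, against 23.6% of the transcripts of all genes at the same filter, which are longer. Without NORAD, the LINC transcripts held 0.0481 elements per kilobase, against 0.114 over all genes. Only 2 of 11956 genes, NORAD included, had 15 or more. A match in the letters is a description and not evidence of binding.

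The rest of the 12 most abundant lay between 17.2 and 30.1 FPKM in the NFX1 library and between 16.2 and 25.1 FPKM in the vector library. LINC01604, the MYC-induced RNA now called MINCR, had 30.1 FPKM in the NFX1 library and 21.9 FPKM in the vector library. Its ratio of 1.37 (interval 1.18 to 1.59) was the highest of the 12. LINC00963 (28.1 FPKM in the NFX1 library, 22.7 in the vector library), LINC01278 (28.8 and 25.1) and LINC01273 (19.5 and 16.2) were also higher in the NFX1 library, with intervals that did not include 1. LINC00857 had 18.8 and 18.9 FPKM, with an interval that included 1. LINC01578 was lower in the NFX1 library, with 19.1 and 20.8 FPKM (ratio 0.921, interval 0.857 to 0.990). Neighbours in this order can lie closer than the libraries do: LINC01273 and LINC00998 both had a mean of 17.8 FPKM, and each differed by more than the gap between those means from library to library.

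**Figure D2:**
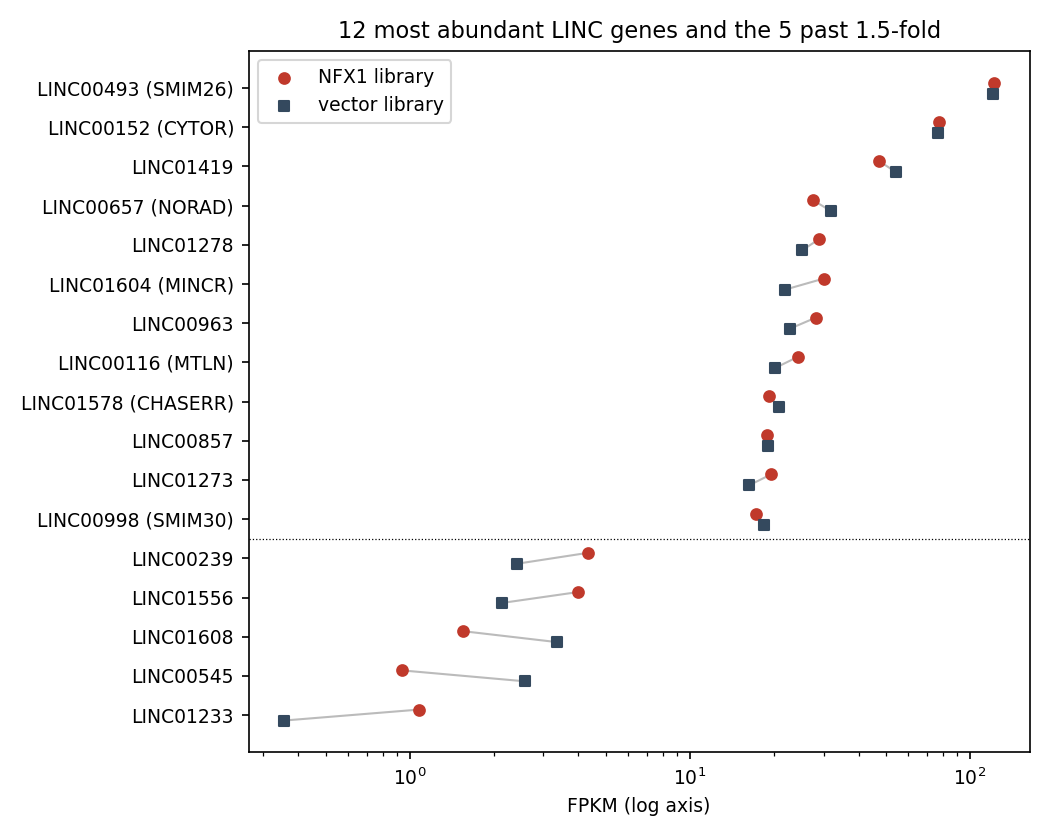
FPKM (log axis) of the 12 most abundant LINC genes, above the dotted line, and of the 5 beyond 1.5-fold, below it; circles are the NFX1 library and squares the vector library. The 12 run from 122 FPKM for LINC00493 to 17.2 FPKM for LINC00998 in the NFX1 library with small gaps between the libraries, and the gaps are wide below the line.

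As a group the LINC genes centred near 0. Of the 110, 60 had higher and 50 had lower values under NFX1, with a median change of 0.02 and an interquartile range of -0.10 to 0.17. Over all 12235 genes at the same filter, 51.3% were higher, with a median of 0.01 and an interquartile range of -0.12 to 0.16. Adjusted for the trend with GC content, transcript length and level, the median of 104 LINC genes was 0.03, with 60 higher.

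Beyond 1.5-fold, 3 LINC genes were higher and 2 were lower in the NFX1 library, 4.55% of the 110. The background over all genes was 0.646% (0.441% higher and 0.204% lower). All 5 had a greater value between 1 and 5 FPKM, where they were 8.06% of 62 LINC genes, and 1.38% of all genes in that range passed. None of the 26 LINC genes under 1 FPKM and none of the 22 at 5 FPKM or more passed, against backgrounds of 0.76% and 0.298%. Under 1 FPKM the added 1 FPKM leaves little room to pass. By the FPKM ratio itself, LINC genes there lay past 1.5-fold in both directions, up to 2.38 for LINC00322 and down to 0.435 for LINC01573. Each of these reached 0.5 FPKM in 1 library only, so its direction is not independent of that filter. The share of all genes past 1.5-fold by this ratio was not counted. In the range from 1 to 5 FPKM, the median transcript had 1445 bp for LINC genes and 3187 bp for all genes, so at the same FPKM fewer fragments stood behind a LINC value. The part of this difference in counting error was not tested. With 1 FPKM added to each value, none of the 5 passed a limit of 2-fold, which 0.131% of all genes did. This rests on the added value: with 0.1 FPKM added, LINC01233, LINC00545 and LINC01608 had changes of 1.37, -1.37 and -1.07, past 2-fold.

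The 3 higher genes were LINC01556, LINC00239 and LINC01233. LINC01556 (chromosome 6, 28911549 to 28912505, hg19) had 3.99 FPKM in the NFX1 library and 2.13 FPKM in the vector library, a change of 0.68. The ratio was 1.88 with an interval of 1.17 to 3.14, from an estimated 56 and 26 fragments. LINC00239 (chromosome 14, 102196774 to 102199745) had 4.32 and 2.40 FPKM in the NFX1 and vector libraries, a ratio of 1.80 (interval 1.24 to 2.73). LINC01233 (chromosome 19, 22715428 to 22716296) had 1.08 FPKM in the NFX1 library and 0.355 FPKM in the vector library. Its ratio of 3.04 rested on an estimated 18 and 5 fragments, and the interval ran from 1.13 to 10.9. LINC01233 reached the 0.5 FPKM minimum in the NFX1 library alone, so its direction is not independent of that filter. It lies 31 bp from the locus LOC101929124, which had 5.21 and 4.62 FPKM. Its trend-adjusted change was 0.58, just under the limit of 0.585.

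The 2 lower genes were LINC00545 and LINC01608. LINC00545 (chromosome 13, 31456699 to 31506745, hg19) had 0.936 FPKM in the NFX1 library and 2.58 FPKM in the vector library, a change of -0.89. That was the lowest among the LINC genes, with a ratio of 0.362 and an interval of 0.155 to 0.716 from an estimated 11 and 28 fragments. LINC01608 (chromosome 8, 111949919 to 112039662) had 1.55 and 3.36 FPKM in the NFX1 and vector libraries, a ratio of 0.461 (interval 0.278 to 0.766). The nearest expressed genes lay 202366 bp from LINC00545 and 1245899 bp from LINC01608. The intervals of all 5 genes rest on full transcript lengths of 411 to 639 bp. For transcripts this short the fragments may be overestimated and the intervals too narrow.

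**Figure D3:**
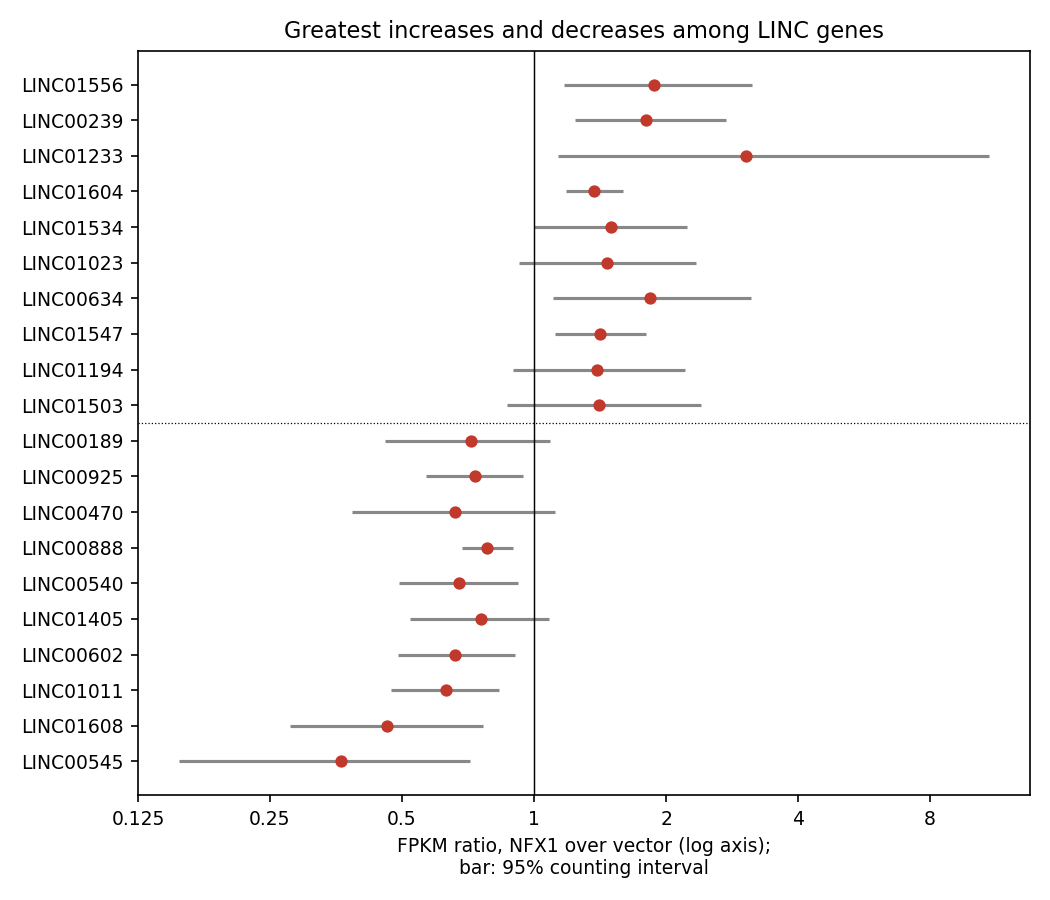
FPKM ratio of NFX1 over vector (log axis) for the 10 greatest increases, above the dotted line, and the 10 greatest decreases among LINC genes with at least 1 FPKM in a library, in order of their change; bars are 95% exact counting intervals. LINC01233 and LINC00545 have the most distant ratios, 3.04 and 0.362, and wide intervals.

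The other genes among the 10 greatest increases had changes from 0.30 to 0.44. They were LINC01604, LINC01534, LINC01023, LINC00634, LINC01547, LINC01194 and LINC01503. Trend adjustment made several of these smaller by over 1.5 times, to 0.25 for LINC01023, 0.22 for LINC01547, 0.21 for LINC00634 and 0.17 for LINC01503. LINC01547 had 3.78 FPKM in the NFX1 library and 2.67 FPKM in the vector library (interval of the ratio 1.12 to 1.80). Its locus lies 25 bp from FAM207A, which had 104 and 88.3 FPKM. LINC01023 (4.08 and 2.78 FPKM), LINC01194 (2.72 and 1.95) and LINC01503 (1.86 and 1.32) had intervals that included 1.

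The other genes among the 10 greatest decreases had changes from -0.38 to -0.30. LINC01011 had 1.05 FPKM in the NFX1 library and 1.67 FPKM in the vector library. The table holds this symbol in 2 rows of 1 locus, and the second row went the other way, at 0.735 and 0.695 FPKM. LINC00888, now named SNHG33 as the host of a small nucleolar RNA, was the most abundant of these, with 10.5 FPKM in the NFX1 library and 13.4 FPKM in the vector library (ratio 0.782, interval 0.685 to 0.893). LINC00540 (1.17 and 1.73 FPKM) and LINC00602 (1.26 and 1.91 FPKM) also had intervals below 1. LINC01405 (5.43 and 7.20 FPKM), LINC00470 (0.927 and 1.40) and LINC00189 (1.40 and 1.95) had intervals that included 1. LINC00602 shares its listed locus on chromosome 6 with LINC00473, an RNA known to be induced by cyclic AMP signalling, which had 2.61 FPKM in the NFX1 library and 2.23 FPKM in the vector library.

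The promoters of 3 of the 5 genes beyond 1.5-fold are shown from RefSeq, as windows of 300 bases around the start (GRCh38.p14). They are shown because these 5 LINC genes differed most between the libraries with 1 FPKM added to each value. Capitals mark the core of the hypoxia response element, ACGTG, the E-box CACGTG, which contains it, and the TATA sequence TATAAA, each searched on both strands.
LINC01556 (chr6:28943534-28943833, + strand): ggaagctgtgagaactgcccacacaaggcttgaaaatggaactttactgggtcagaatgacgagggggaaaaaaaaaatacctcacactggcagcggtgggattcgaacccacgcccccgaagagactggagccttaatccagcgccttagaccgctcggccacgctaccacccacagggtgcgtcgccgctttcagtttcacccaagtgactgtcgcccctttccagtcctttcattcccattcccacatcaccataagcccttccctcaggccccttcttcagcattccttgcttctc
LINC01233 (chr19:22532376-22532675, + strand): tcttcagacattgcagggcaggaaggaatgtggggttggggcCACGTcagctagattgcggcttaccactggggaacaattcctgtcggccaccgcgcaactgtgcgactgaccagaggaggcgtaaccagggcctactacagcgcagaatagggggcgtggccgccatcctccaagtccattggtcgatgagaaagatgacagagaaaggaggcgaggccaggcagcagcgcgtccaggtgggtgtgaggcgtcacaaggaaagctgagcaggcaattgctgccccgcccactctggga
LINC00545 (chr13:30882312-30882611, + strand): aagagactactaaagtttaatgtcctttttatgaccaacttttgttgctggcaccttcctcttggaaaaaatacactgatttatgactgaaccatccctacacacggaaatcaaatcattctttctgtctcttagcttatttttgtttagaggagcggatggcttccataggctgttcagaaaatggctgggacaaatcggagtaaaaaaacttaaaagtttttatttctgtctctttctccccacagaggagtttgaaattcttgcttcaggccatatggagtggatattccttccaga
LINC01233 held the core once, and the windows of LINC01556 and LINC00545 held none of the 3 motifs, which says only that these letters are not in those windows. Their GC contents were 55.0% for LINC01556, 60.3% for LINC01233 and 38.3% for LINC00545. Among the 82 LINC genes with a promoter in the table, 28.0% held ACGTG, 9.76% CACGTG and 9.76% TATAAA. Over all 35116 promoters these shares were 21.4%, 7.26% and 11.5%. The median promoter GC content was 62.2% for the LINC genes and 58.7% over all. Both libraries were hypoxic, so these matches bear on no difference between oxygen levels.

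LINC00925, also among the 10 greatest decreases, is now MIR9-3HG, the host of a copy of miR-9, a microRNA best known from neurons. It had 2.05 FPKM in the NFX1 library and 2.81 FPKM in the vector library (ratio 0.732, interval 0.567 to 0.946). Its mature products are shown from RefSeq (GRCh38.p14) with the seed, bases 2 to 8, in capitals. They have different seeds, and their own levels were not measured here.
hsa-miR-9-5p: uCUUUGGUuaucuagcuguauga
hsa-miR-9-3p: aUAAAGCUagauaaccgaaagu
The only other LINC gene with a microRNA inside its RefSeq span was LINC01057, with MIR378G, at 3.13 FPKM in the NFX1 library and 2.92 FPKM in the vector library.

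Of 23 LINC genes listed for work on liver cancer, 22 were in the table, 8 were expressed and none was beyond 1.5-fold, against the background of 0.646%. Of the 8, 4 were higher and 4 were lower, with a median change of -0.01. LINC00261, which lies beside the endoderm factor gene FOXA2, had 11.3 FPKM in the NFX1 library and 12.001 FPKM in the vector library. Its change was -0.08, but 0.04 once trend-adjusted, so its direction is not settled. The directions of LINC00152 and LINC00467 also turned, with trend-adjusted changes of -0.04 and 0.03. FOXA2 had 44.5 and 44.4 FPKM. LINC00662 had 4.24 and 3.43 FPKM in the NFX1 and vector libraries, the greatest change of the list at 0.24, with an interval of the ratio of 1.02 to 1.501. LINC00339 (8.14 and 6.90 FPKM), LINC01138 (8.50 and 7.84), LINC00467 (1.62 and 1.81) and LINC01134 (0.980 and 1.03) had intervals that included 1, as did LINC00261. LINC00511, LINC01225 and LINC01093 were listed at 0 in both libraries.

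Several LINC RNAs start beside a protein-coding gene or are thought to act on it. CHASERR, listed as LINC01578, restrains its neighbour CHD2, which encodes a chromatin remodeller. CHASERR had 19.1 FPKM in the NFX1 library and 20.8 FPKM in the vector library, and CHD2 had 4.73 and 5.92 FPKM, changes of -0.11 and -0.27. The current symbols of 9 more LINC genes name a protein-coding partner. Values were close between the libraries for most of these pairs. ICMT-DT (LINC00337) had 3.85 and 3.82 FPKM in the NFX1 and vector libraries, and ICMT, a methyltransferase of prenylated proteins, 41.0 and 41.1 FPKM. SLC12A2-DT (LINC01184) had 0.950 and 1.08 FPKM and the ion cotransporter SLC12A2 28.8 and 31.1 FPKM. RNF32-DT (LINC01006) had 0.589 FPKM in the NFX1 library and 0.282 FPKM in the vector library, and RNF32 had 1.80 and 1.63 FPKM. LINC01006 reached the 0.5 FPKM minimum in the NFX1 library alone, so its direction is not independent of that filter. The RNA and its partner also differed for ZNF567-DT (LINC01534), with 3.48 FPKM in the NFX1 library and 2.32 FPKM in the vector library, a change of 0.43, while ZNF567 had 1.18 and 1.22 FPKM, a change of -0.03.

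Over all 38 LINC genes with another gene of at least 1 FPKM within 5000 bp, there were 43 such pairs. No neighbour was beyond 1.5-fold on the scale with 1 FPKM added, against the background of 0.646% over all genes, at which a count of 0 among so few is no result about them. By the FPKM ratio itself, LINC00602, the neighbour of LINC00473, was at 0.661. The neighbours' changes ran from -0.36 to 0.45 with a median of 0.03. The highest was SLC25A1, the mitochondrial citrate carrier, beside LINC01311, with 195 FPKM in the NFX1 library and 142 FPKM in the vector library. LINC01311 had 2.12 and 1.70 FPKM. GLI4, a zinc-finger gene beside LINC01604, had 14.5 and 10.4 FPKM, a change of 0.44. The change of LINC01604 was also 0.44, or 0.32 trend-adjusted. Other pairs did not move together. TFAP4 had a change of 0.40 beside LINC01569 at -0.02, and NQO2 one of 0.18 beside LINC01011 at -0.38. A link within pairs was not tested.

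**Figure D4:**
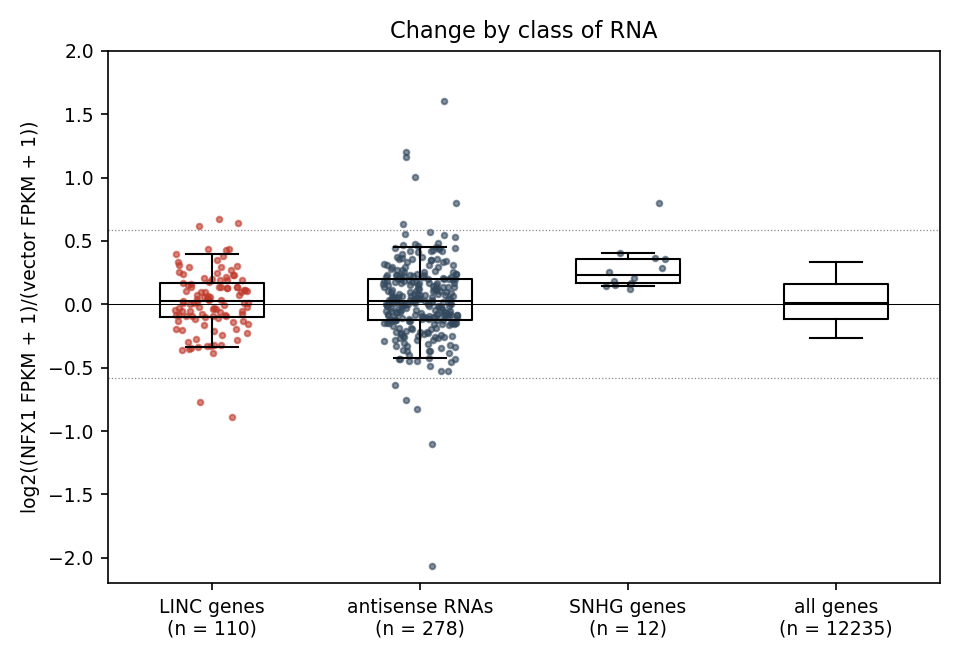
Change, log2((NFX1 FPKM + 1)/(vector FPKM + 1)), in LINC genes, antisense RNAs, small nucleolar RNA host genes (SNHG) and all genes; points are single genes of the first 3 classes, boxes the interquartile range with the median, whiskers the 5th to 95th percentile, and dotted lines the 1.5-fold limit. LINC genes and antisense RNAs both centre near 0, at 0.02 each, and the 12 SNHG genes lie above 0.

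Set beside like classes of noncoding RNA, LINC genes had values closest to those of antisense RNAs. The 278 antisense RNAs had a median change of 0.02, with 54.3% higher, against 54.5% of the LINC genes, and 3.96% beyond 1.5-fold against 4.55%. Of the antisense RNAs, 4 were at least 2-fold higher and 2 at least 2-fold lower. On the same scale, with 1 FPKM added to each value, no LINC gene was. The 12 SNHG genes, which carry small nucleolar RNAs in their introns, had a median of 0.23 and all 12 were higher in the NFX1 library. They were taken by symbol, so LINC00888, now SNHG33 and lower in the NFX1 library, is not among them. These differences between classes were not tested.

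Changes leaned with base composition across all genes, and the LINC genes leaned the same way at both ends of GC content. Of the 12 in quintile 1, with the lowest transcript GC content, 3 had higher and 9 lower values under NFX1, at a median change of -0.18, against -0.10 for all its genes. Of the 13 in quintile 5, 8 were higher and 5 lower, with a median of 0.16, against 0.20 for all genes. In quintile 4 the LINC median was 0.02 over 26 genes, against 0.13 for all genes, and in quintile 3 it was 0.11 over 34 genes, against -0.01. Of the 5 genes beyond 1.5-fold, 4 lay in quintile 3 and LINC01608 in quintile 1.

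**Figure D5:**
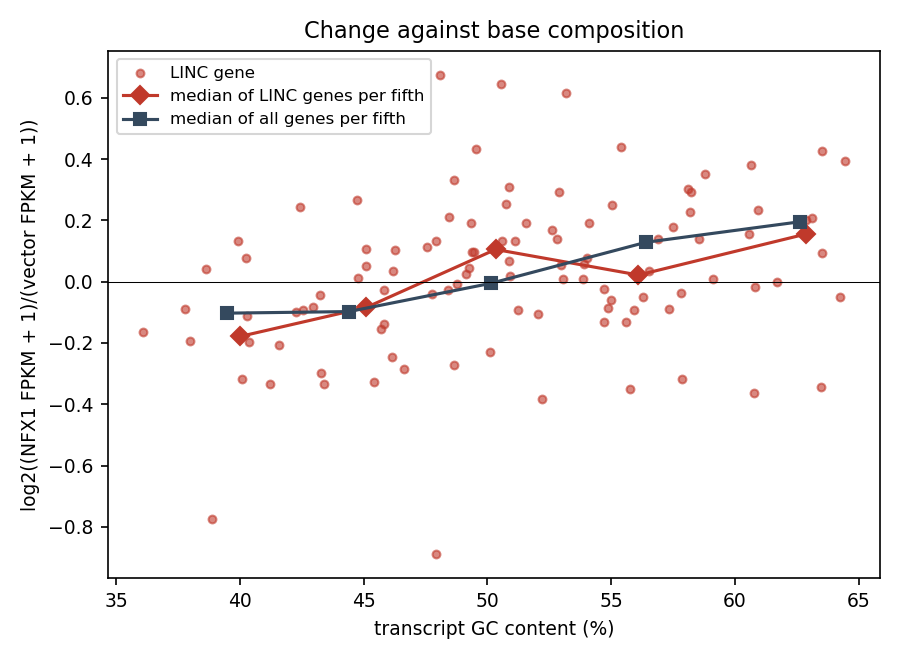
Change of the 104 LINC genes with a GENCODE transcript (points) against transcript GC content in percent; diamonds are the medians of LINC genes and squares the medians of all genes in quintiles of GC content. Both medians are below 0 in quintile 1, at -0.18 for LINC genes and -0.10 for all genes, and above 0 in quintile 5.

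Long noncoding RNA is removed in the nucleus by the RNA exosome and its adaptors, and in the cytoplasm by decapping and degradation from the 5′ end. Of 28 listed symbols of this turnover, 25 were in the table and all 25 were expressed. The symbols without a row of their own were PABPN1, MTREX and TENT4B. MTREX and TENT4B are newer names of SKIV2L2 and PAPD5, which are among the 25. Of the 25, 7 were higher and 18 lower in the NFX1 library with none beyond 1.5-fold, against the background of 0.646%. Their median change was -0.05, and -0.00152 trend-adjusted. The exosome subunit genes EXOSC5 (121 FPKM in the NFX1 library, 93.3 FPKM in the vector library) and EXOSC4 (118 and 97.4 FPKM) had changes of 0.37 and 0.27, or 0.13 and 0.01 trend-adjusted. EXOSC6, another subunit gene, went the other way on adjustment, with 29.03 and 24.2 FPKM and a change of 0.26, or 0.34 trend-adjusted. DCP1A, a decapping cofactor, had 3.76 and 4.67 FPKM and a change of -0.25, or -0.16 trend-adjusted. SKIV2L2, the helicase that feeds the nuclear exosome, had 6.60 and 7.38 FPKM, and its change was -0.14, or -0.03 trend-adjusted.

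In the authors' deposited table, all 110 LINC rows were tested and none was marked significant, against 0.12% of the 14994 rows tested. In the authors' deposited table, 2 of the 110 had p under 0.05, LINC00322 with p = 0.0425 and LINC01556 with p = 0.0435, both with q = 0.999. LINC00322 had 0.593 FPKM in the NFX1 library and 0.249 FPKM in the vector library, so it reached the 0.5 FPKM minimum in the NFX1 library alone. With single libraries behind them, these p-values carry no spread between cultures.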

How the data were processed

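The submitters' processing notes name TopHat2 2.1.0, hg19 and Cufflinks 2.2.1. Settings, annotation and library type are not given in the sources used here. Per the file headers, the deposited table holds 1 FPKM value per row and library, and the authors' log2 fold change, test statistic (a score), p-value and q-value. Each library was matched to its genotype label through the table's sample names.

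The table's 28658 rows include 1651 with no symbol and 492 with more than 1, which were left out, and for a repeated symbol the row with the highest mean was kept, which left 24991 genes. The change was log2((NFX1 FPKM + 1)/(vector FPKM + 1)), with limits of 1.5-fold and a minimum of 0.5 FPKM in a library. The members, lists and tests were chosen with earlier results of these data known; partners outside the symbol rule (CHD2, FOXA2, PUM2), MIR4435-2HG and neighbours were named with their values known. Named genes were the 12 most abundant, those beyond 1.5-fold, the 10 greatest increases and decreases at 1 FPKM or more, members of the fixed lists and those at the limit. Others named as examples were chosen after their values were seen. Of 2 listed host genes of small RNAs, LINC00478 and LINC00338, neither was in the table.

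The table has no counts. The FPKM step of 1 fragment was read from olfactory receptor rows of 850 to 1100 bp (10 rows in the NFX1 library and 9 in the vector library, of which 8 and 9 lay within 0.1 of whole fragments). A gene's fragments follow from its FPKM and GENCODE length (RefSeq-linked transcripts first, by symbol, 104 of 110). They give exact Clopper-Pearson 95% intervals for counting error only. Full transcript lengths were used, so the intervals may be too narrow for short transcripts. The trend was removed with cubic splines (5 knots) on 11956 genes (97.7%) with a transcript. How accurate counts beyond the limit, trend removal and intervals are for short, weakly expressed genes like the 5 beyond 1.5-fold was not tested. RefSeq names and promoters (GRCh38.p14) and GENCODE were matched by symbol, and no coordinate was moved between builds. Alternatives covered pseudocount, filter, scaling, repeated rows, row status, trend and fold limit. Versions were scikit-learn 1.9.0, scipy 1.17.1, pandas 2.3.3, numpy 2.4.6, matplotlib 3.10.9 and Python 3.11.15.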

Additional observations from a re-analysis of the deposited data

How the results depend on the processing

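The numbers of LINC genes beyond 1.5-fold, 3 higher and 2 lower in the NFX1 library, depended on how low values were weighted. With a pseudocount of 0.1 they were 8 and 7, with a pseudocount of 5 they were 0 and 0, and with a limit of 2-fold they were 0 and 0. They were 3 and 2 with the median of all genes set to 0 and with repeated rows summed, and 2 and 2 with the trend removed. They were also 3 and 2 with rows marked OK alone and with a filter of 1 or 0.1 FPKM, but these settings could not change them. All 110 rows were marked OK, and the 5 genes all reached 1 FPKM. Genes under 0.5 FPKM in both libraries cannot pass 1.5-fold with 1 FPKM added. With the filter of 0.1 FPKM, 99 of 184 genes were higher and 85 lower. The median change stayed between 0.01 and 0.03 under all settings tried. One restriction was to the 102 genes that RefSeq lists as lncRNA, another to the 97 overlapping no other locus of at least 1 FPKM. Both were chosen after seeing the data. All 5 genes beyond 1.5-fold belong to both groups, so the numbers of 3 and 2 could not change. No named gene beyond 1.5-fold turned its direction with the trend removed. Pseudocount, filter, row status and fold limit cannot turn a gene's direction, and the median shift of 0.00708 was too small to turn these, so those settings are no check of it. No paired analysis was possible because each group has 1 library, and no replicate could be left out for the same reason. Depth limits the 5 genes beyond 1.5-fold, which rest on an estimated 5 to 83 fragments per library.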
